A study of Mus musculus with 192 samples.

Results

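Long terminal repeat (LTR) retrotransposon types made up 544 of the 25914 features in a table of RNA molecule counts from single mouse embryonic stem cells. They were taken by name, as the repeat types whose names begin with IAP, RLTR, RMER, MERVL, MMERV, MURVY, ETn, MMETn, MT, ORR, MLT, MST, THE1 or LTR. Of these 14 prefixes, 12 had a member, and no type began with MST or THE1. The other features were 1010 repeat types outside this rule, 24264 genes and 96 spike-ins. Each type pools every annotated copy of 1 kind of element over both strands, so no value below belongs to a single genomic copy.

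The cells came from the mouse embryonic stem (ES) line R1, which was kept on feeders of irradiated mouse embryonic fibroblasts. Feeders were removed by settling, dying cells were depleted with annexin V beads, and the cells were frozen, thawed and captured in the 96 chambers (wells) of 1 microfluidic chip. Every well received spike-in RNAs and 21 cycles of PCR, and the libraries were sequenced as made and again after 9 further cycles. The table has 1 column per well, which both library forms share, so the forms were not compared. All wells come from 1 culture and form 1 sample, so spreads are between wells and nothing was tested across them. Wells were divided by their content of gene molecules into 45 low-RNA wells (8774 to 35543, median 22234) and 51 RNA-rich wells (51390 to 573648, median 98750).

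LTR retrotransposons are relatives of retroviruses that copy themselves through RNA. An element holds an internal part with viral genes between a pair of LTRs, and transcription starts in the first LTR, while recombination often leaves only a solitary LTR behind. In mouse ES cells most of them are silenced by the zinc finger protein cofactor Trim28, the histone methyltransferase Setdb1 and DNA methylation. The MERVL elements, whose LTR is MT2_Mm, are known for the rare ES cells that resemble embryos at the 2-cell stage, which also transcribe the Zscan4 genes.

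Genes that belong to this 2-cell-like state are themselves repeated, which bears on what a molecule count can say about them. The promoters of Zscan4d and Zscan4f are shown because these copies matter for the single well described last, and those of Gm4340 and Sp110 because both genes are on the 2-cell-like list. Each is a RefSeq sequence of GRCm38.p6 from 250 bases before the annotated start to 50 after it. Capitals mark bases in runs of 12 letters that the promoter shares with its partner, Zscan4d with Zscan4f and Gm4340 with Sp110. They lie at chr7:11166099-11166398 on the minus strand, chr7:11397665-11397964 on the plus strand, chr10:104193792-104194091 on the plus strand and chr1:85603842-85604141 on the minus strand.
Zscan4d: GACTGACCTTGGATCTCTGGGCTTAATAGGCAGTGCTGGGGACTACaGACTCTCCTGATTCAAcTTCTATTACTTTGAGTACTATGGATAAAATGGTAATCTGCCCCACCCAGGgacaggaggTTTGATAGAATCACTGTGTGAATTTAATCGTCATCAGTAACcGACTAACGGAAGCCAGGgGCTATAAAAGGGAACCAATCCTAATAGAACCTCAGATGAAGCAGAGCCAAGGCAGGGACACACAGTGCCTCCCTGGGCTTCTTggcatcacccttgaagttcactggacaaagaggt
Zscan4f: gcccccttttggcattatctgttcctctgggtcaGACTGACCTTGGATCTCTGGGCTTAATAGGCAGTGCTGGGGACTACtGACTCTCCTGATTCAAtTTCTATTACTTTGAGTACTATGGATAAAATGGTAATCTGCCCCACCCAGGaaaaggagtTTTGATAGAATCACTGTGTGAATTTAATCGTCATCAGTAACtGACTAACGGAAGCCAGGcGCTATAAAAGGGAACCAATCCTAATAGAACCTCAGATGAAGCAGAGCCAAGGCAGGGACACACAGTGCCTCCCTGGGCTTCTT
Gm4340: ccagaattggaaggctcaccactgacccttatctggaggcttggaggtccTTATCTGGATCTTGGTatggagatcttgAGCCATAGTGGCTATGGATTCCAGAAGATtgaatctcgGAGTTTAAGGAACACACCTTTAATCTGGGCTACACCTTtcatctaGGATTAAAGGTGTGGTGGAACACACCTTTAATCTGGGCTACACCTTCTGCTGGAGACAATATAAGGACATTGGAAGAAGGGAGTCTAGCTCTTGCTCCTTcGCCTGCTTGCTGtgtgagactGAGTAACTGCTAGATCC
Sp110: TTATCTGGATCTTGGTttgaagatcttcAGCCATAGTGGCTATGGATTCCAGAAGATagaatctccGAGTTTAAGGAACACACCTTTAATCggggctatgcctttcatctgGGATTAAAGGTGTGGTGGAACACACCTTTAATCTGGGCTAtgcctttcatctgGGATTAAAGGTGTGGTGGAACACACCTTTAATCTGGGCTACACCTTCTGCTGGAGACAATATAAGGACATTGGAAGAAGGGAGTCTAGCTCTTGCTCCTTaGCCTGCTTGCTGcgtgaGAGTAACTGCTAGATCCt
The capitals cover 253 of 300 bases in both Zscan4 promoters, 212 in Gm4340 and 239 in Sp110. At least 50 such runs were shared with Gm4340 by 27 of 32851 RefSeq promoters (0.0822%). These sequences were not assigned to an LTR type, because the repeat types come without sequence here.

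A molecule was found for 494 of the 544 LTR types, and 23 types had one in every well. The types summed to 240730 molecules, 3.91% of all repeat molecules. The minimum of 50 molecules used for counts of types was met by 331, and 163 had 1 to 49. The 20 most abundant types held 42.1% of the LTR molecules. All LTR molecules in the table are listed as uniquely mapped.

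Levels are given as molecules per 10000 gene molecules of the well. Summed over all types, the level in the RNA-rich wells was lowest in D02 (177), had a median of 277 and was highest in H08 (1041). In the low-RNA wells it was lowest in H12 (126), had a median of 570 and was highest in B04 (1304). The ranges overlap, but 44 of 45 low-RNA wells lay above the RNA-rich median, and 3 of 51 RNA-rich wells lay above the low-RNA median. The mean level was 602 ± 231 (SD over 45 wells) in low-RNA wells and 322 ± 145 (SD over 51 wells) in RNA-rich wells, a ratio of 1.87. Relative to spike-ins the order was the reverse: the median well had 215 LTR molecules per 1000 spike-in molecules in the low-RNA class and 371 in the RNA-rich class, and the ratio of means was 0.605. All statements on higher or lower levels below are relative to gene molecules, whose own median ratio falls to 0.248 by spike-ins.

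Other repeats, ribosomal precursor and mitochondrial RNA also had higher levels in low-RNA wells. Repeat types outside the rule had a mean level of 12488 in low-RNA and 8686 in RNA-rich wells. The ribosomal precursor Rn45s had 594 and 258. The mitochondrial genome gave a median of 29.1% and 10.4% of gene molecules. In the other direction, the summed level of the 13 ES cell markers, all of them detected, was lower in low-RNA wells. Its median was 55.1 in low-RNA and 94.3 in RNA-rich wells. Most of the sum was Dppa5a, with means of 38.9 and 70.3. By gene, 5 of the 13 markers were at least 1.5 times lower, 7 lay between and Klf4 was higher (1.51). Among all 8276 tested genes 37.3% were lower and 10.2% higher, so these counts are near those of genes in general. The median ratio of the markers was 0.754, beside 0.765 among all tested genes. Within the low-RNA class the summed LTR level followed that of the other repeat types (Spearman's rho 0.838, n = 45 wells that share chip and library). Across the RNA-rich wells rho was 0.477 (n = 51). With gene molecules the summed LTR level had a rho of 0.655 in low-RNA and -0.282 in RNA-rich wells. Within the low-RNA class it thus rose with gene molecules, opposite to the difference between the classes. With the mitochondrial percentage rho was -0.034 and 0.248. The part of other repeats, ribosomal precursor and mitochondrial RNA in the LTR difference was not tested. As a share of repeat molecules, LTR types were 4.73% in the low-RNA class, with an exact 95% binomial interval of 4.70% to 4.77% that covers counting error only, and 3.68% in RNA-rich wells (3.66% to 3.70%).

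**Figure D1:**
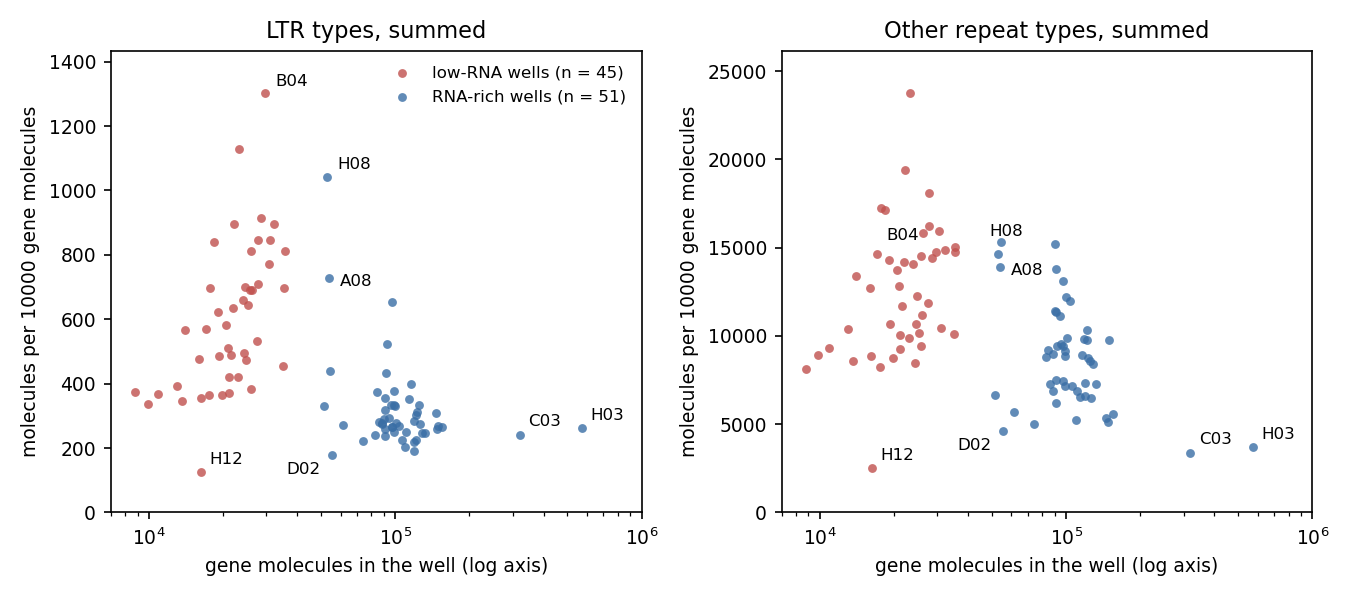
Summed level of LTR types (left) and of other repeat types (right) against the gene molecules of each well, 1 point per well, with the gene molecules on a log axis. LTR levels of low-RNA wells ran from 126 in H12 to 1304 in B04 and those of RNA-rich wells from 177 in D02 to 1041 in H08; per spike-in molecule the classes stand in the reverse order.

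H08 and H12 stand apart from their classes. H08 had 52812 gene molecules, near the lower end of the RNA-rich class, and was the highest RNA-rich well for 82 of the 331 types. H12 had the fewest spike-in molecules of any well (926, against a median of 6998.5). Without both wells, left out after the data were seen, the ratio of summed levels was 1.99. C03 and H03, which held the most gene and spike-in molecules, had LTR levels of 242 and 262.

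A type was counted as higher or lower in low-RNA wells where the ratio of mean levels was at least 1.5 or at most 1 over 1.5. Of 331 types, 229 were higher (69.2%), 23 were lower (6.95%) and 79 lay between, with a median ratio of 2.17. Among repeat types outside the rule 72.2% were higher and 12.7% lower, so the share of LTR types that were higher is near that of repeats in general. Among 8276 genes 10.2% were higher and 37.3% lower. By the spike-in total 17 LTR types were higher and 145 lower, and by the molecules of the other repeat types 147 and 56. The median gene ratio was 0.248 and 0.548 in these 2 scalings, itself past the lower limit in both. Without the well in which the type had its highest level, 207 of the 229 and 16 of the 23 stayed past the limit. Types with few molecules can pass it by counting error: the exact Poisson 95% intervals of the pooled levels lay apart for 214 of the 229 higher and for 11 of the 23 lower types. Just past the limits lay IAP-d-int (1.508, counted as higher) and IAP1-MM_LTR (0.656, counted as lower). RMER6-int (1.497) and MLTR31F_MM (0.670) lay just between the limits and were not counted.

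The types that were lower in low-RNA wells tended to be those with many molecules for their length. The level per megabase (Mb) of annotated copies puts types of different copy number on 1 scale. The 331 types were divided by molecules per Mb into 4 sets of 82 or 83. The median ratio was 2.42, 2.38 and 2.09 in the first 3 sets and 1.03 in the densest. The densest set held 17 of the 23 lower types and 31 of the 229 higher ones. Spearman's rho between molecules per Mb and the ratio was -0.343 across 331 types, which are not independent and whose ratio and density use the same molecules.

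**Figure D2:**
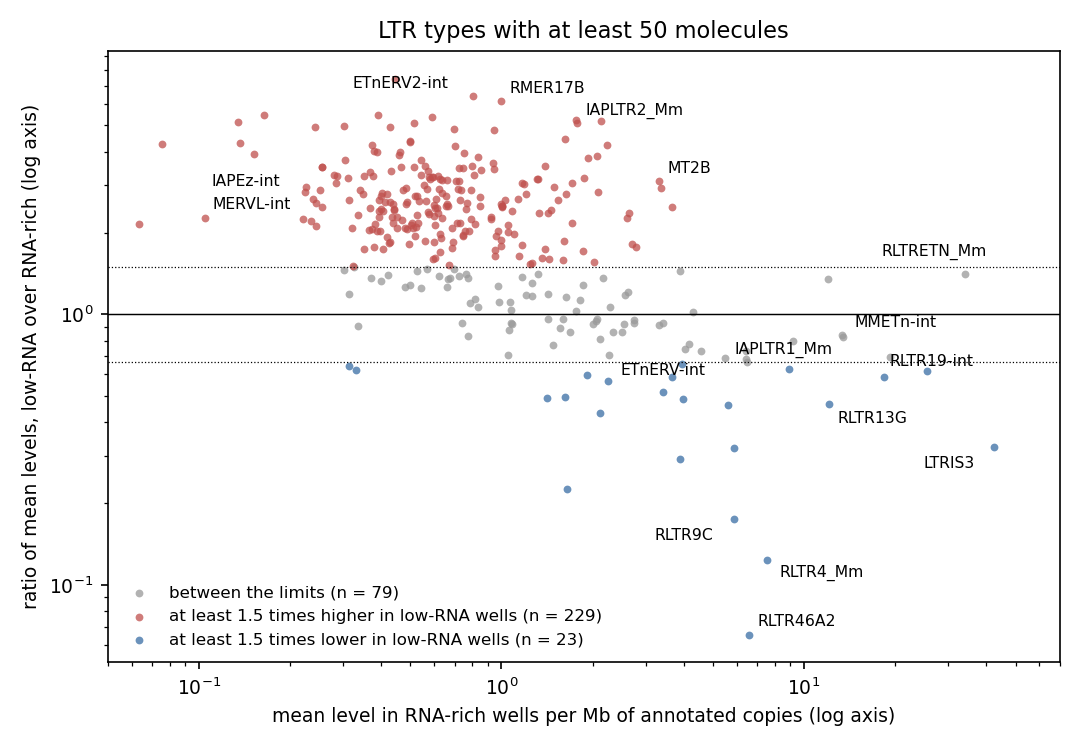
Ratio of mean levels (low-RNA over RNA-rich wells, log axis) against the mean level in RNA-rich wells per Mb of annotated copies (log axis), 1 point per type with at least 50 molecules. Of 331 types 229 lie above the upper dotted line (1.5) and 23 below the lower one. By the spike-in total the counts are 17 and 145, where the median gene ratio is 0.248.

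Among class II elements, relatives of betaretroviruses, the ETn and MusD family held the most abundant type, and its parts went different ways. MMETn-int, an internal part of this family, had 1.81, 16.1 and 123 molecules per 10000 in the lowest, median and highest RNA-rich well. In low-RNA wells it had 3.39, 9.72 and 109. The classes overlap over nearly the whole range, the highest wells being H08 and B04, and the ratio of means was 0.837, or 1.02 from pooled molecules. Its LTR, RLTRETN_Mm, had medians of 12.6 in RNA-rich and 11.2 in low-RNA wells, again with H08 (104) and B04 (107) highest. The ratio of means was 1.41, but with medians in place of means it was 0.886, the other side of 1.

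ETnERV-int, the internal part of a related element, had medians of 5.71 in RNA-rich and 3.06 in low-RNA wells and a ratio of means of 0.688. ETnERV2-int differed from it. Its level was 0.202, 1.03 and 4.54 in the lowest, median and highest RNA-rich well and 0.612, 8.02 and 15.3 in low-RNA wells. Of the 45 low-RNA wells, 38 lay above every RNA-rich well, the clearest separation among the named types. The ratio was 6.43 (768 and 639 molecules) and stayed at 6.29 without its highest well.

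IAP elements, intracisternal A particles, are among the youngest and most mobile mouse elements. Their 25 types summed to a median of 32.1 in low-RNA and 12.9 in RNA-rich wells, a ratio of means of 2.12. Of 19 tested types 15 were higher and 3 lower, beside 69.2% and 6.95% of all tested LTR types. The most abundant, IAPLTR1_Mm, had 0.669, 5.23 and 32.3 in the lowest, median and highest RNA-rich well and 0.771, 4.34 and 28.95 in low-RNA wells. Its classes overlap almost entirely and the ratio was 0.823. IAPLTR2_Mm had medians of 0.663 and 4.36 and a ratio of 5.09, with 42 of 45 low-RNA wells above the RNA-rich median. IAPLTR1a_Mm, with 251 molecules in all, had a ratio of 5.47. IAPEz-int, the internal part of coding IAP elements, had medians of 1.69 and 5.11 and a ratio of 2.84. Per Mb its level in RNA-rich wells was 0.225, against 13.5 for IAPLTR1_Mm. IAPEY4_LTR was lower by the mean (ratio 0.321, 70 molecules), but without well H08 the ratio was 0.896, which is no longer past the limit.

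MMERVK10C-int, an internal part of a betaretrovirus-like family, had medians of 1.17 in RNA-rich and 3.28 in low-RNA wells, with a ratio of 3.39. RLTR10C, the LTR known to flank it, had a ratio of 0.565 with medians of 0.823 and 0.488. The internal part was thus higher and the LTR lower in low-RNA wells by the same rule.

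RLTR was the largest prefix group, with 187 types and 29.2% of LTR molecules. Its summed median was 88.7 in RNA-rich and 139 in low-RNA wells. Of 138 tested types 80 were higher and 14 lower, beside 69.2% and 6.95% of all tested LTR types. RLTR19-int had 1.42, 10.9 and 97.7 in the lowest, median and highest RNA-rich well and 1.13, 6.24 and 28.5 in low-RNA wells. It was lower in low-RNA wells (ratio 0.588), and 43 of 51 RNA-rich wells lay above the low-RNA median. Its highest wells were B05 (97.7) and C06 (51.5), and without B05 the ratio was 0.662. RLTR46A2 had the smallest ratio of any tested type (0.0654), from 61 molecules in RNA-rich and 1 in low-RNA wells.

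RLTR9 and RLTR13 copies are known as binding sites of transcription factors in embryonic or trophoblast stem cells. In the RLTR9 types 3 of 9 tested were lower and 2 higher, with a summed ratio of 0.751. RLTR9C was present in 40 of 51 RNA-rich wells and 11 of 45 low-RNA wells. Its pooled level was 0.973 in RNA-rich wells (exact Poisson 95% interval 0.895 to 1.06, counting error only) and 0.178 in low-RNA wells (0.106 to 0.281), and the ratio of means was 0.175. RLTR9E had medians of 2.80 and 3.31 in RNA-rich and low-RNA wells and a ratio of 0.801. RLTR13G had 0.202, 3.36 and 16.4 in the lowest, median and highest RNA-rich well and 0, 0.653 and 11.6 in low-RNA wells, a ratio of 0.465. RLTR13B4 (274 molecules, ratio 0.226) and RLTR13F (116 molecules, ratio 0.291) were lower as well. Across all 16 tested RLTR13 types, 8 were higher and 4 lower, beside 69.2% and 6.95% of all tested LTR types.

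Class I elements, relatives of gammaretroviruses, included RLTR4_Mm, an LTR of the murine leukaemia virus group. RLTR4_Mm was found in 30 of 51 RNA-rich and 7 of 45 low-RNA wells. Its pooled level was 0.733 (0.665 to 0.806) in RNA-rich and 0.119 (0.0613 to 0.207) in low-RNA wells, and the ratio of means was 0.123. RLTR4_MM-int, its internal part, had a ratio of 1.41, which was 1.00 without well E01. RLTR1B-int had medians of 4.41 in RNA-rich and 5.78 in low-RNA wells and a ratio of 1.35. MURVY-LTR, of a family enriched on the Y chromosome, had 235 molecules and a ratio of 3.26, which was 2.40 without G08.

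The LTR prefix joins the mouse LTRIS types with older elements that carry only a number. LTRIS2 had medians of 3.56 in RNA-rich and 2.53 in low-RNA wells, a ratio of 0.684. LTRIS3 was the densest type tested, with 42.4 molecules per 10000 gene molecules and Mb in RNA-rich wells. It had 0, 1.54 and 13.6 in the lowest, median and highest RNA-rich well and 0, 0.703 and 4.88 in low-RNA wells, a ratio of 0.323. The 108 numbered types summed to a ratio of 1.75, and only 8 of them reached 50 molecules.

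Class III elements, the ERVL and MaLR groups, are older and known for their use as promoters in oocytes and early embryos. The MT types were higher in 23 of 26 cases and ORR types in 22 of 28, beside 69.2% of all tested LTR types. MTD, the most abundant of them, had 5.57, 10.9 and 43.2 in the lowest, median and highest RNA-rich well and 5.51, 25.03 and 64.3 in low-RNA wells, a ratio of 2.25. Of the low-RNA wells 43 of 45 lay above the RNA-rich median. MTC had medians of 7.07 and 13.7 (ratio 1.89) and MTA_Mm of 2.93 and 6.19 (ratio 2.14). The internal part MTA_Mm-int did not share this, with medians of 4.62 and 3.11 and a ratio of 0.860.

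ORR1D2 had nearly the same level in both classes. It had 4.51, 10.2 and 15.7 in the lowest, median and highest RNA-rich well and 3.70, 9.03 and 22.9 in low-RNA wells, a ratio of 0.953. The other 4 ORR1D types were all higher in low-RNA wells. ORR1A2 had medians of 4.29 and 6.34 but a ratio of means of 0.963. A few RNA-rich wells, such as H04 (29.3) and D06 (29.1), were far above the others. MT2B, an ERVL LTR related to that of MERVL, had medians of 4.82 and 15.3 and a ratio of 3.11.

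The RMER types, a mixed group of older rodent LTRs, were higher in 44 of 51 cases, with a summed ratio of 2.79. Over all tested LTR types 69.2% were higher and 6.95% lower. RMER17B had 0.291, 1.34 and 10.2 in the lowest, median and highest RNA-rich well and 0.612, 9.25 and 26.2 in low-RNA wells, a ratio of 6.17. RMER17C2 had medians of 1.06 and 5.88 (ratio 5.22), and 31 of 45 low-RNA wells lay above every RNA-rich well. RMER6A, the most abundant of the group, had medians of 3.55 and 9.59 and RMER1B of 2.35 and 8.87. The largest ratio of any type was that of RMER16A2 (7.46), which rests on 51 molecules. The MLT prefix takes in old MLT1 and MLT2 elements, shared with other mammals, and the MLTR types. Its tested types were higher in 33 of 45 cases and lower in none, among them 19 of 21 MLT1, 5 of 7 MLT2 and 9 of 16 MLTR types.

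**Figure D3:**
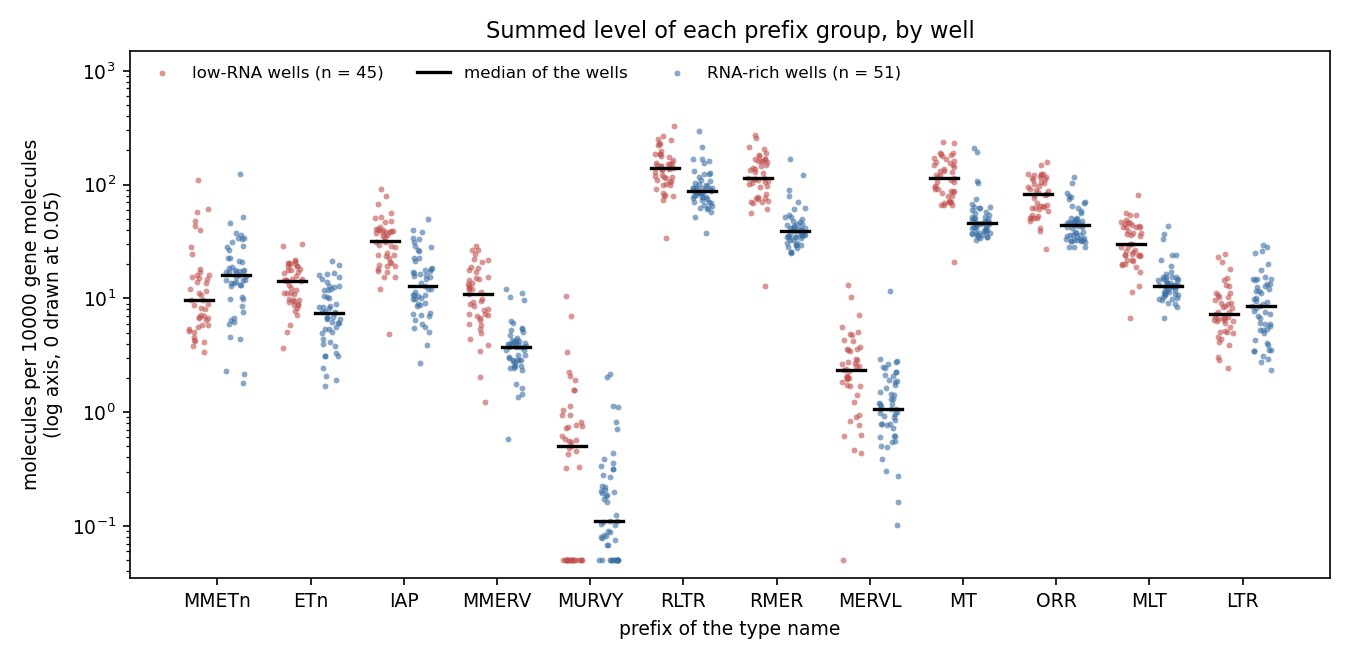
Summed level of each of 12 prefix groups, 1 point per well on a log axis, low-RNA wells to the left and RNA-rich wells to the right of each name, with a bar at the median. MMETn and LTR have lower medians in low-RNA wells (9.72 against 16.1 and 7.34 against 8.52) and the other 10 groups higher ones; by the spike-in total the summed LTR level is lower in low-RNA wells (ratio 0.605).

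Variation between the RNA-rich wells was set against spike-ins, of which each well received the same solution. The squared coefficient of variation (CV) of a feature was divided by that of spike-ins with the same mean, fitted as 3.23/mean + 0.00874 over 65 spike-ins. Types with a mean of 1 molecule or more were called above technical noise if the quotient reached 2 both with all wells and without the highest well. This held for 85 of 296 LTR types (28.7%), 40.8% of the repeat types outside the rule and 7% of genes. From a mean of 30 molecules up it held for 25 of 27 LTR types, 101 of 109 other repeat types and 209 of 556 genes, so the LTR share is close to that of other repeats of like abundance. Without H08, chosen after the data were seen, 62 LTR types were above technical noise.

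Among the types above technical noise, MT2_Mm had the largest quotient (133), which fell to 9.56 without well A08. MMETn-int followed with 37.7, RLTR19-int with 37.4 and RLTRETN_Mm with 34.7. They kept 16.1, 17.4 and 8.59 without their highest wells. RLTR1B-int (22.6), ORR1A2 (21.1), IAPLTR1_Mm (16.9) and IAPEz-int (14.2) were next among types with a mean of at least 30. Of the 20 most abundant types, ORR1D2 and RMER17C were not above technical noise. ORR1D2 had a mean of 115 molecules and a quotient of 1.44. RMER17C had a mean of 31.9 molecules and a quotient of 2.83, or 1.91 without its highest well.

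**Figure D4:**
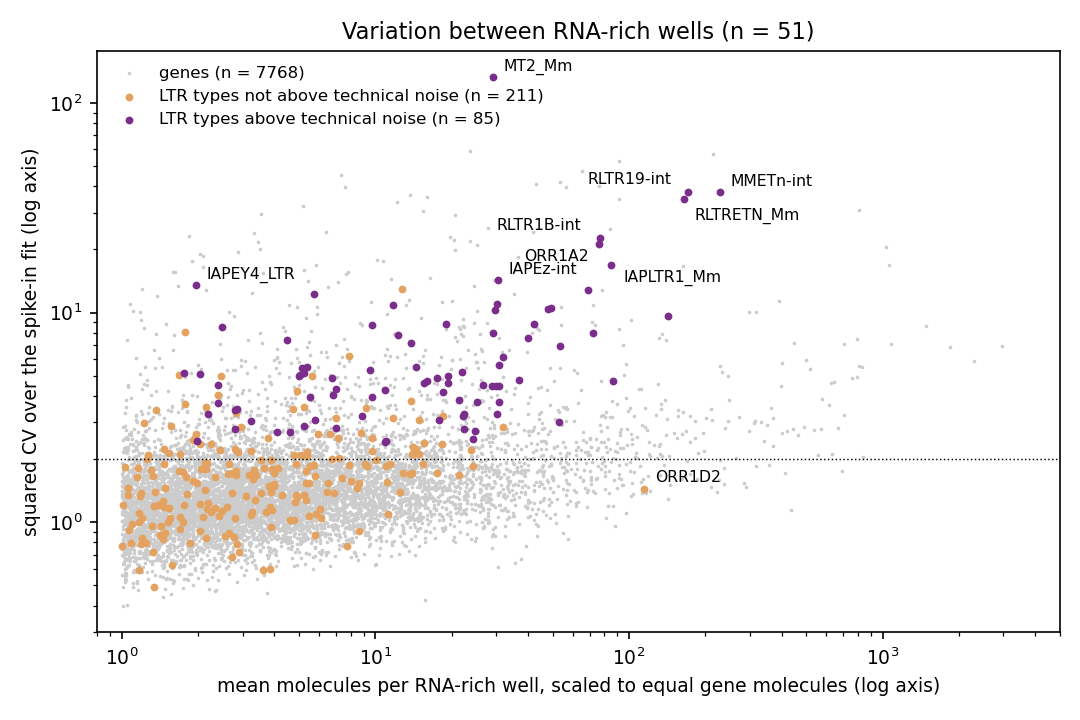
Squared CV over the spike-in fit against mean molecules in the 51 RNA-rich wells, both on log axes, with genes in grey and LTR types in colour. MT2_Mm lies highest (133), MMETn-int, RLTR19-int and RLTRETN_Mm lie from 34.7 to 37.7, and ORR1D2 lies at 1.44, below the dotted line at 2.

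Parts of 1 element that vary together across wells were sought in 15 pairs of an internal part and an LTR. MMETn-int and RLTRETN_Mm had a Spearman's rho of 0.596 across the 51 RNA-rich wells and 0.626 across the 45 low-RNA wells. ETnERV-int and RLTRETN_Mm had 0.560 and 0.623. The internal parts MMETn-int and ETnERV-int had 0.776, the highest value among the 190 pairs of the 20 most abundant types, whose median was 0.155. All points share chip, library and total count.

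Other pairs were looser. MTC-int and MTC had 0.457 in RNA-rich wells, IAPEz-int and IAPLTR1_Mm 0.286, and MERVL-int and MT2_Mm 0.202. RLTR4_MM-int and RLTR4_Mm (-0.039), ORR1A0-int and ORR1A0 (-0.001) and RLTR1B-int and RLTR1B (-0.100) were near 0 or below. Several of these rest on few molecules, such as RLTR4_MM-int with 292 and MERVL-int with 332.

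Several abundant types had other levels in 10 of the 51 RNA-rich wells, those with over 20 molecules of the keratins Krt8 and Krt18 per 10000 and well E02. E02 had little keratin RNA (3.12) but the highest levels of the fibroblast markers Fn1 (27.4) and Cd44 (14.2). The summed LTR level was much the same, with a median of 263 in these 10 wells and 282 in the other 41. MMETn-int had 6.60 and 17.3, RLTR13G 0.570 and 3.49, and RLTR9E 1.09 and 3.19. In the opposite direction LTRIS3 had 5.13 and 1.06, RLTR1B-int 12.1 and 3.61, and IAPLTR1_Mm 10.9 and 4.65. The ranges overlapped for all 6 of these types, and since the wells were chosen by measured RNA, the values are a description. Markers of feeder fibroblasts, of which 14 of 14 were detected, summed to a median of 9.29 in RNA-rich wells with a highest value of 185 in D02. Their part in these levels was not tested.

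Well A08 held many molecules of MT2_Mm together with those of Zscan4. MT2_Mm had 0, 0.602 and 72.4 in the lowest, median and highest RNA-rich well and 0, 0.525 and 4.71 in low-RNA wells. A08 alone held 391 of its 1129 molecules (34.6%), and the next well was A05 with 12.1. The ratio of means was 0.433, but without A08 it was 0.961, which is no longer past the limit. MERVL-int in A08 was 5.37 (29 of 332 molecules), the highest of the RNA-rich wells, while low-RNA well E01 had 7.03.

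Zscan4a to Zscan4f, zinc finger genes of the 2-cell-like state, had 57 of their 109 molecules (52.3%) in A08. Their summed level there was 10.6, and the next well, G06, had 0.833. No more than 10% of the molecules of any Zscan4 copy were uniquely mapped, so the copies cannot be told apart by count. Of these copies, the promoters of Zscan4d and Zscan4f alone were compared, as printed above. Gm5662 (24 molecules) and Gm2022 (10 molecules) were also highest in A08, but none of their molecules were uniquely mapped. Summed over the 2-cell-like list the level was 23.7 in A08, against a median of 2.03 in RNA-rich wells. The sum in A08 includes the 10.6 of Zscan4 and 5.00 of Eif1a, whose own RNA-rich median was 1.92. Other genes on the list were highest elsewhere, Zfp352 in E01 (1.41) and AU018091 in H01 (3.54), and Sp110 had no molecule in A08. The list had 30 entries among the features, of which 14 had a molecule, and Zscan4c, Dux, Tcstv1, Tcstv3 and Gm4340 had none. The 9 measured genes whose promoters resemble that of Gm4340 had 3 molecules in A08 in all.

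Features were ranked by their level in A08 over the mean of the other RNA-rich wells. The first of 1189 were Zscan4f (141), Gm5039 (115), Mreg (87.9) and MT2_Mm (63.2). IAPLTR4 stood lower at 25.9 with 10 molecules, and MERVL-int at 15.3. Zscan4f and Gm5039 had 50 molecules each over all wells, 21 and 20 of them in A08. These 2 genes thus reach a minimum of 50 only through A08, and their ranks are a description. A08 was otherwise rich in LTR molecules, with a summed level of 729, the second of its class. It was the highest of the RNA-rich wells for 43 of 331 types. It had 53975 gene molecules, and its ES cell markers summed to 162, against a median of 94.3. Of this sum 131 came from Dppa5a. Other markers lay on both sides of their RNA-rich medians, such as Zfp42 (12.4 against 2.93) and Gdf3 (0 against 0.672). Across the 51 RNA-rich wells Zscan4 and MT2_Mm had a Spearman's rho of -0.028, and -0.099 without A08. Of all 96 wells, 65 had no Zscan4 molecule. These values therefore cannot show whether a relation holds outside A08.

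**Figure D5:**
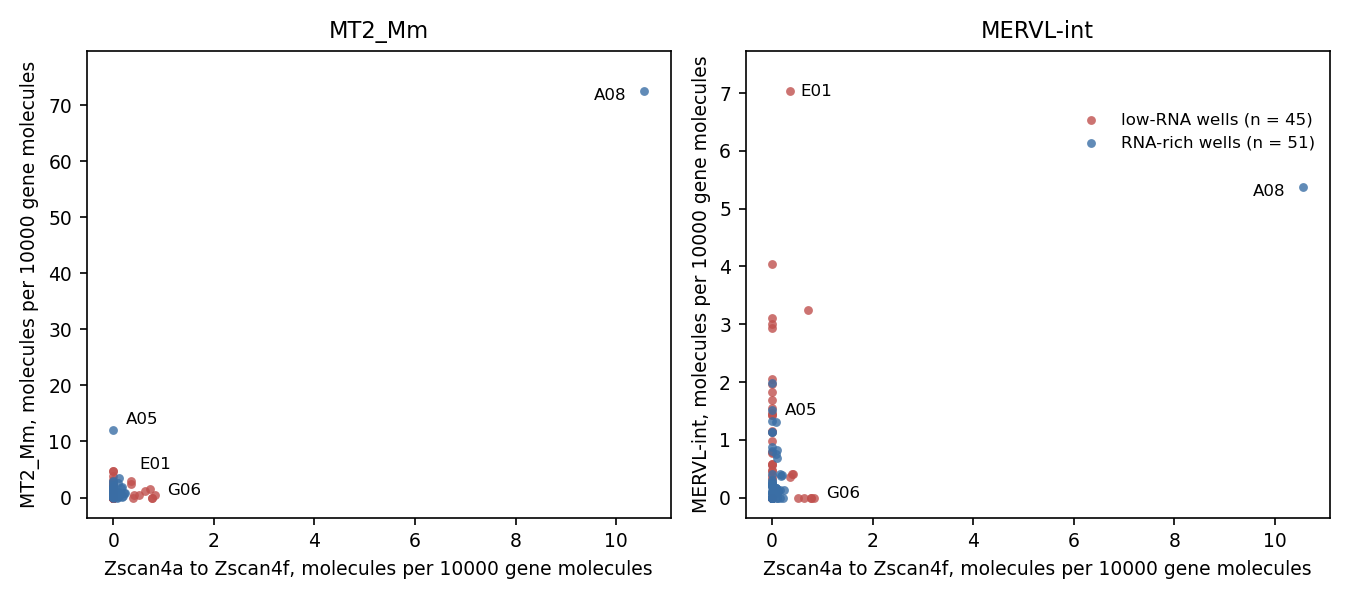
Level of MT2_Mm (left) and MERVL-int (right) against the summed level of Zscan4a to Zscan4f, 1 point per well, as molecules per 10000 gene molecules. A08 lies at 72.4 and 10.6 in the left plot, far from all other wells, and in the right plot low-RNA well E01 (7.03) lies above A08 (5.37).

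The median ratio of genes that silence LTR elements was above that of all tested genes. Of 28 tested genes on this list 5 were higher and 4 lower, beside 10.2% higher and 37.3% lower among all genes, and the median ratio was 1.08 beside 0.765. Trim28 had medians of 2.70 in low-RNA and 2.20 in RNA-rich wells (ratio 0.962). Setdb1, the methyltransferase it recruits, was lower (ratio 0.521, 259 molecules), as were Chaf1b, Ehmt2 and Daxx. Atrx (2.40), Rif1 (2.35) and Chaf1a (2.34) were higher. Of the 28 genes, 2 were above technical noise among RNA-rich wells, the de novo DNA methyltransferases Dnmt3a and Dnmt3b. This share is near the 7% of all genes above technical noise. Of 7 tested genes of RNA sensing and the interferon response, 4 were lower, among them Samhd1 (0.317) and Apobec3 (0.563), and the other 3 lay between the limits.

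The number of LTR types with a molecule per well depends on depth. With every well thinned to 8000 gene molecules the median was 145 types in low-RNA wells (49 to 196) and 93 in RNA-rich wells (76 to 180). With full counts it was 211 and 256. The order of the classes thus turns with depth, and at equal gene molecules more types were seen in the low-RNA wells. Thinning evened out the gene molecules but not the LTR molecules, whose mean level was 1.87 times as high in low-RNA wells. The part of that difference in the number of types was not tested.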

How the data were processed

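The authors deposited molecule counts per feature and well. The submitters' processing notes list Bowtie and mm10 (GRCm38) without a version. A read that matched several places was given to its most 5' hit in an exon, per the file headers, and the molecules of a repeat type were added over its copies and both strands. The length given for a type is the total of its copies, taken here as bases. For all 544 LTR types the deposited count of uniquely mapped molecules equalled the total. Whether a repeat molecule inside an exon also counts for its gene is not given in the sources used here.

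All 96 wells were kept. Levels are molecules per 10000 gene molecules, leaving out spike-ins and repeats. Wells with at most 40000 gene molecules were called low-RNA and those with at least 50000 RNA-rich. Types named were the 20 most abundant, the first of each prefix, the 8 largest and 8 smallest ratios, the 10 largest noise quotients and 15 pairs, 54 types in all. Other types were named after their values were seen: IAP-d-int, IAP1-MM_LTR, RMER6-int, MLTR31F_MM and IAPLTR4. Members and lists were chosen with earlier results of these data known. Intervals cover counting error only, at a level of 95%. The calculations were tested on simulated data. Python 3.11.15, numpy 2.4.6, pandas 2.3.3 and scipy 1.17.1 were used.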

Additional observations from a re-analysis of the deposited data

How the results depend on the processing

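No paired analysis was possible because each column of the table is 1 well shared by both library forms. The settings without A08, H08 or H08 and H12 and without a type's highest well were chosen after the data were seen. By the spike-in total the summed ratio of 1.87 became 0.605. The median gene ratio became 0.248, a shift of -1.62 on the log2 scale. Without mitochondrial genes and Rn45s this shift was 0.42, with gene and repeat molecules together -0.26 and with other repeat molecules -0.48. The summed ratio ran on the same side of 1 under every setting other than spike-ins. Counts of 229 higher and 23 lower types became 17 and 145 by spike-ins, 147 and 56 by other repeats, 148 and 73 with medians of 251 types, 108 and 6 of 138 types thinned to 8000, and 133 and 13 with at least 200 molecules, where fewer types are tested. Lower types numbered 12 without mitochondrial genes and Rn45s, 35 with gene and repeat molecules, and 13 at a fold of 2. The 85 types above technical noise became 144 over all wells and 141 with the highest well kept in. Types per RNA-rich well numbered 256 with full counts and 150 when thinned to 20000, with 16 low-RNA wells left out. For the 12 prefix groups, compared after the common shift, no setting moved the ratio by more than the spread between wells, and the side of 1 changed only for MMETn (1.02 from pooled molecules). Of the pair correlations, 11 of 90 moved, among them MMETn-int with RLTRETN_Mm (0.420 without keratin-rich wells) and RLTR1B-int with RLTR1B (0.323 in low-RNA wells). Types under 200 molecules are limited by counting error.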

Other observations

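Some repeat types with names of LTR elements fell outside the prefixes, and they are described here by a name pattern chosen after the names were seen. They were 65 types with 28760 molecules, of which 37 had at least 50. Of these, 23 were higher and 5 lower in low-RNA wells, beside 69.2% and 6.95% of the tested types taken by the prefixes. ERVB7_1-LTR_MM alone had 13038 molecules, more than any type taken by the prefixes. Its mean level was 9.78 in low-RNA and 22.4 in RNA-rich wells, a ratio of 0.437, and its noise quotient was 19.4. ERVB4_1C-LTR_Mm, with 741 molecules, had a ratio of 0.407. The internal parts MMERGLN-int (2388 molecules), MYSERV6-int (1465 molecules) and MuRRS4-int (798 molecules) had ratios of 1.82, 2.24 and 2.76.

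GSAT_MM, the major satellite repeat of mouse pericentromeres, had 533 molecules in well A08, the well with MT2_Mm and Zscan4. Its level there was 98.7, against a median of 4.97 in the other RNA-rich wells and a highest value of 73.2 in D01.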
